A study of Mus musculus with 9 samples.

Results

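The ephrins and their Eph receptors, the Slits and their Robo receptors, and the netrins with their receptors are families of axon guidance genes, and their RNA levels were compared in the embryonic midbrain of mice bred for a deletion of Gpr161 in the Wnt1 lineage and of their controls. Members were taken by symbol from the deposited table, as every gene named as an ephrin, Eph receptor, Slit, Robo, netrin, netrin-G, Unc5 receptor, Dcc or neogenin, with the highest row where a symbol repeated. This gave 40 of the 21356 distinct symbols, of which 16 encode ligands and 24 encode receptors. In all, 39 of the 40 passed the filter on low values and were tested among 14029 genes. Ntn3 was covered by the same rule, but no named row of the deposited values carried that symbol, so it was not analysed here.

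RNA-seq of poly-A selected RNA had been run on midbrain tissue of C57BL/6 fetuses at E13.5, with 3 libraries in each of 3 genotypes. The floxed control (Gpr161 f/f) carried loxP sites on both Gpr161 alleles and no Cre. The Cre control (Gpr161 f/+;Wnt1-Cre) carried 1 floxed allele and the Cre transgene, and the cKO (Gpr161 f/f;Wnt1-Cre) carried both floxed alleles and the transgene. Cre in this line is driven by the Wnt1 promoter, which is active in the dorsal midbrain and in the neural crest, so that cells of other lineages within the dissected tissue kept Gpr161, and the Cre control differs from the floxed control in both the transgene and the loss of an allele.

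Eph receptors are tyrosine kinases that bind ephrins on neighbouring cells. EphA receptors mostly bind the lipid-anchored ephrin-A ligands, EphB receptors mostly bind the transmembrane ephrin-B ligands, and both sides of the contact can signal. In the midbrain they are best known for the graded maps by which retinal axons find their place in the tectum. Slits are secreted proteins that repel axons through Robo receptors, and netrin 1 attracts axons through Dcc and repels them through the Unc5 receptors, systems that together steer axons toward, across and away from the ventral midline.

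The deposited values are on a log2 scale and were normalised between libraries by the authors. They lay between -2.12 and 17.95, and no read counts came with them, so the depth of each library is unknown and no counting interval can be given. Converted to a linear scale (2 raised to each log2 value), they summed to between 26609900 and 27496600 per library. No transformation is named, so fold changes and linear values hold for the scale as deposited and may differ from those of counts. Gpr161 itself was not lower in the libraries labelled cKO, with a mean log2 value of 11.77 in the floxed libraries, 11.88 in the Cre control and 11.88 in the cKO (log2 fold change 0.11 ± 0.065 (SE) against the floxed control, limma adjusted p = 0.223). The table holds 1 value per gene and does not separate the floxed exons. All 8 midbrain and isthmus markers passed the filter, and so did 4 of 6 forebrain markers. Summed linear values in the floxed control were 18410 to 21750 for the 8 midbrain and isthmus markers and 1485 to 1554 for the 6 forebrain markers.

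Levels of different genes were compared per length, as the linear value per kb of the mean length of a gene's annotated transcripts, and the plot of levels by role shows all 40 members on that scale. In the floxed control, the highest member was Ephb2, with 2260 ± 53.0 linear units per kb (SD, n = 3), followed by the secreted ligand Ntn1 with 1950 ± 33.0. Ephb1 (1670 ± 58.0) and Efnb3 (1620 ± 22.0) came next and lay within their spread of each other, as did Efnb1 (1440 ± 71.0) and Neo1 (1370 ± 11.0). EphB receptors and ephrin-B ligands thus held 4 of the 5 highest places in the floxed control by mean length. At the other end stood Ntn5 (8.67 ± 0.26), which was under the filter in every genotype, Epha1 (19.4 ± 1.20), Epha6 (39.8 ± 2.0) and Robo4 (74.7 ± 9.80). The same 4 genes were the lowest in the Cre control and in the cKO. With the longest annotated transcript in place of the mean length, the median over the 40 members in the floxed control fell from 590 to 280 units per kb. Efnb3 then took rank 1 and Ephb2 rank 6, while these 4 lowest genes kept their ranks. The ephrin-A ligand Efna2 moved from rank 10 to rank 4, so EphB receptors and ephrin-B ligands no longer held 4 of the 5 highest places.

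**Figure D1:**
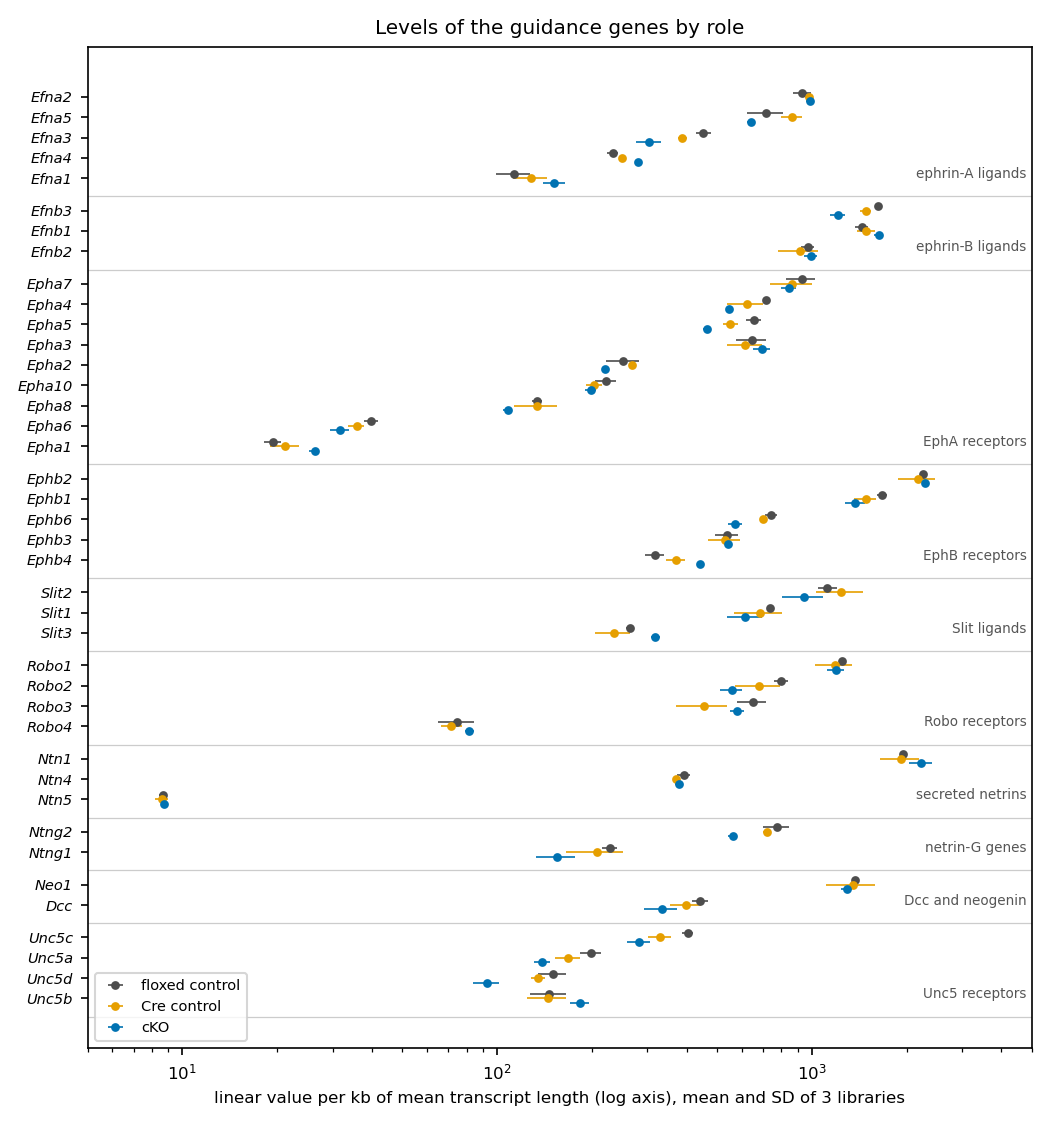
Level of each of the 40 members in the floxed control (grey), the Cre control (orange) and the cKO (blue), as the linear value per kb of mean transcript length on a log axis, with points for the mean and bars for the SD of 3 libraries, grouped by role and ordered within a role by the floxed control. The genotypes lie close together beside the span between genes, which runs from 8.67 (Ntn5) to 2260 (Ephb2) units per kb in the floxed control.

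The question of the main comparison was which of these genes differ in the midbrain when both Gpr161 alleles are floxed in the presence of Cre. Against the floxed control, 22 of 39 members (56.4%) passed the test, 7 higher and 15 lower in the cKO, where 38.3% of all genes tested passed. A gene passed, here and throughout, with an adjusted p under 0.05 by limma with Benjamini-Hochberg adjustment over all 14029 genes. The share of members that were lower (15 of 39) stood beside 18.8% of all genes, and the share that were higher (7 of 39) beside 19.5%. The changes were small on the scale of the deposited values, where fold changes of members that passed ran up to 1.62. Unc5d was the only member that also exceeded 1.5-fold, a limit that 2.92% of all genes passed together with the test. In 28 of 39 members the 3 cKO libraries did not overlap with the 3 floxed control libraries, where 57.1% of all genes did not.

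Against the Cre control, 12 of 39 members (30.8%) passed, 4 higher and 8 lower, where 9.72% of all genes passed. The share higher (4 of 39) stood beside 4.86% of all genes, and the share lower (8 of 39) beside 4.85%. None of the 39 exceeded 1.5-fold and passed the limma test together, where 0.563% of all genes did so. At an unadjusted p under 0.05 by limma there were 26 members. The share of all genes at that limit was not counted, so this number has no background beside it. In 19 members the cKO and Cre control libraries did not overlap, where 31.5% of all genes did not. The comparisons share the cKO libraries, so their calls are not independent of each other. Both were passed by 10 members (25.6%, beside 9.34% of all genes), with Efna3, Efnb3, Epha5, Ephb6, Ntng2 and Unc5d lower and Efna4, Epha1, Ephb4 and Slit3 higher. A further 12 passed against the floxed control alone and 2 (Efna5 and Epha2) against the Cre control alone, and whether the 2 effects differ was not tested. The remaining 15 passed neither. In 16 members every cKO library lay outside the range of all 6 control libraries, where 26.2% of all genes did.

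**Figure D2:**
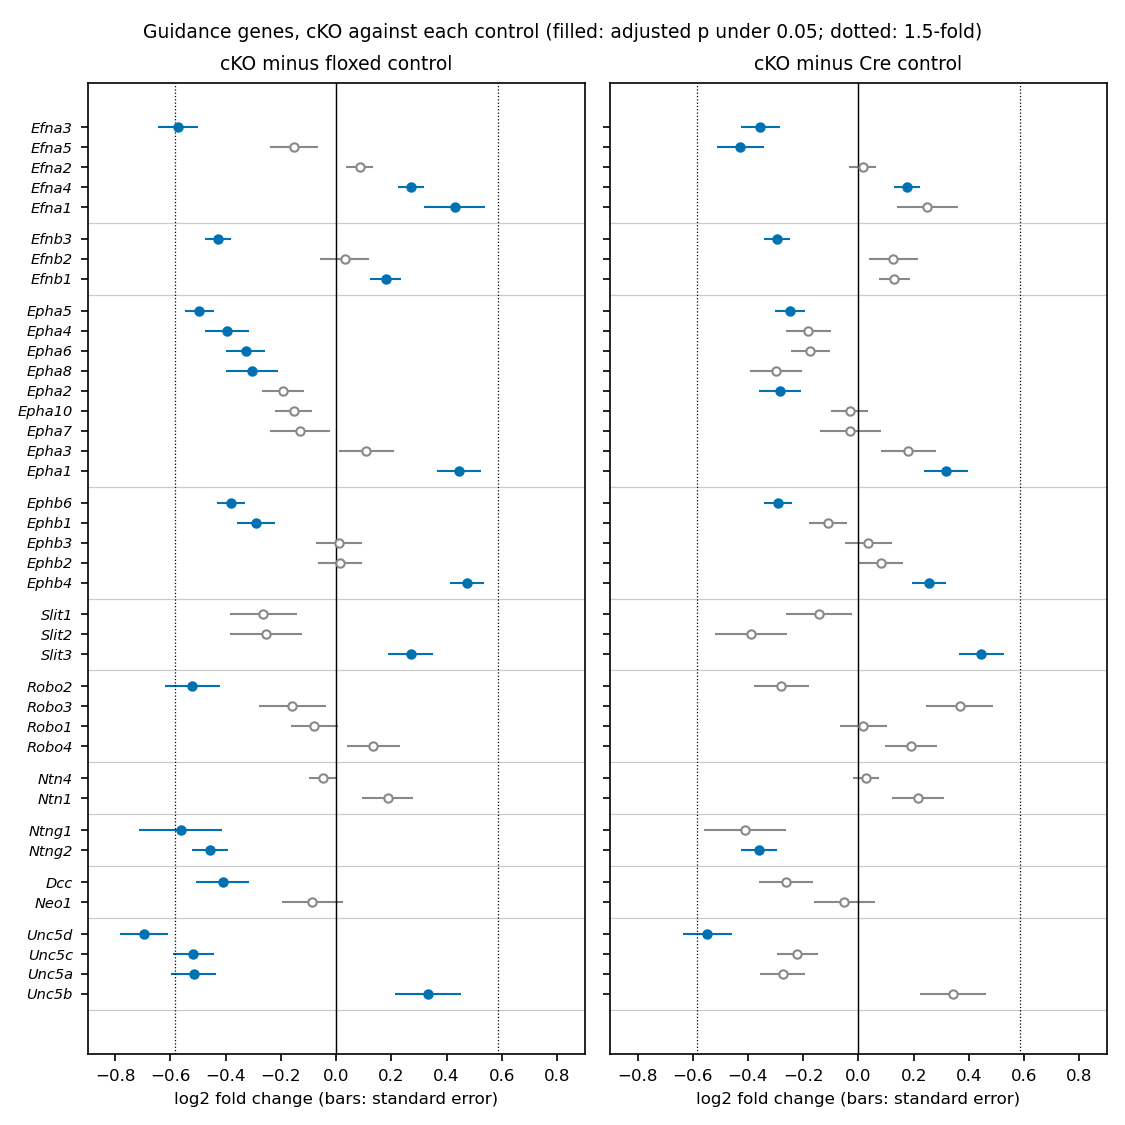
Log2 fold change of the 39 members tested, as cKO minus floxed control (left) and cKO minus Cre control (right), with bars for the standard error, filled points for an adjusted p under 0.05 by limma and dotted lines at a fold change of 1.5. Most filled points lie to the left, 15 of 22 against the floxed control and 8 of 12 against the Cre control, and only Unc5d against the floxed control lies beyond a dotted line.

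The calls against the Cre control rested on single libraries more than those against the floxed control. When each of the 9 libraries was left out in turn, 17 of the 22 members called against the floxed control passed every time, and 2 of the 12 called against the Cre control, Efnb3 and Unc5d, did so. Over all genes, 25.7% to 46.7% were called against the floxed control in these fits and 1.69% to 23.5% against the Cre control. The share of all called genes that passed every time was not counted. Against the Cre control 22 members were called without Cre control replicate 1, 2 without Cre control replicate 3, 2 without cKO replicate 1 and 5 without cKO replicate 2. The share of all genes called was 23.5%, 1.75%, 1.69% and 3.56% in turn. With the mean of the erythroid marker genes as a covariate, 4 members (Efna3, Efnb3, Epha5 and Ephb4) passed against the floxed control, where 3.22% of all genes did, and 0 against the Cre control by limma, where 0.107% did. The standard errors were larger in this fit for all 18 and 12 members that lost the call, and the log2 fold change of 15 and 10 of them stayed within 1.5 times of its value without the covariate, as for Epha4 (-0.39 and -0.38), Unc5a (-0.52 and -0.53) and Slit3 (0.27 and 0.30) against the floxed control. All 24 members that passed in either comparison kept their direction in every alternative that could move a fold change. The other filters, the fit without a trend, the fit on only the 6 libraries and the replicate block leave it as it was. So does the omission of a library from the genotype outside the comparison.

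Promoters are shown for 4 of the members called against both controls, which had, with Unc5d, the largest mean change there. The sequence just before a RefSeq start of genes that moved in opposite directions can thus be read side by side. Each is the 250 bases before the RefSeq start on GRCm38.p6, read 5′ to 3′ on the gene's own strand, which is the minus strand for all 4. Capitals mark E-boxes (CANNTG), the motif of the basic helix-loop-helix factors that drive neurogenesis. Efna3, lower in the cKO, has its window at chr3:89322940-89323189, Ntng2, also lower, at chr2:29248100-29248349, Epha5, also lower, at chr5:84417383-84417632, and Epha1, higher, at chr6:42373269-42373518. The window of Ntng2 lies within the gene as annotated by GENCODE (chr2:29194541-29253005), so it is not the sequence upstream of that gene's 5′ end. That of Efna3 overlaps with the annotated gene (chr3:89313899-89322965) in its last bases as printed, so it is not wholly upstream.
Efna3: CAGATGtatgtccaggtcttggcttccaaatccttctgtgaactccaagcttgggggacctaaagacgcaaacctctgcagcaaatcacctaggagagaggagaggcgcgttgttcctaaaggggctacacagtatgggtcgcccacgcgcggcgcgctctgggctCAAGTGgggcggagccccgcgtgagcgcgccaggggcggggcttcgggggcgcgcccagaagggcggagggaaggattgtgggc
Ntng2: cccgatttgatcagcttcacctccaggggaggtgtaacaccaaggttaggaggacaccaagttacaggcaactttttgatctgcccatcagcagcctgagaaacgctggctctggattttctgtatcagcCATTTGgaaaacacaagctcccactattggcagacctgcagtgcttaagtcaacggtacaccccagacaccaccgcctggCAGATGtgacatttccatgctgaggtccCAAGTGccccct
Epha5: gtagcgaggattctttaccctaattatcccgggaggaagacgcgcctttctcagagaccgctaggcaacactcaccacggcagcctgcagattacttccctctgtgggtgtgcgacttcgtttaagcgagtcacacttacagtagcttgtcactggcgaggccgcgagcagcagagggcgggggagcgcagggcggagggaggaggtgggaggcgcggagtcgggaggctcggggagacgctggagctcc
Epha1: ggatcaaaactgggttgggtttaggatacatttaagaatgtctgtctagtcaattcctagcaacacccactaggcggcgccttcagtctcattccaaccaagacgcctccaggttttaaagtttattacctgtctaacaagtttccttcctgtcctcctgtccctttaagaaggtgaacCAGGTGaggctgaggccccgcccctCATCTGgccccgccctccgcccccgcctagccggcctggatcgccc
The window of Efna3 holds 2 E-boxes, that of Ntng2 3, that of Epha1 2 and that of Epha5 0. Among all 32851 RefSeq promoter windows of this length, 66.2% hold at least 1 E-box, and among the 40 windows of members, which cover 35 of the 40 genes, 18 do. The Gli motif GACCACCCA, searched on both strands as the E-box was, occurred in 0 of the 40 member windows and in 0.225% of all windows. The letters TATAAA occurred in 2 member windows and in 12.4% of all. Windows of members were richer in G and C, with a median of 64.6% against 52.4% over all windows.

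Among the ephrin-A ligands, Efna3 fell and its neighbours on chromosome 3, Efna4 and Efna1, rose. All 3 genes lie on the minus strand of GRCm38, Efna1 at chr3:89271733-89281142, Efna3 at chr3:89313899-89322965 and Efna4 at chr3:89333390-89338028, with 32.8 kb between Efna1 and Efna3 and 10.4 kb between Efna3 and Efna4. Efna3 had log2 values of 9.15, 8.98 and 9.06 in the floxed libraries, 8.80, 8.89 and 8.85 in the Cre control and 8.43, 8.40 and 8.64 in the cKO. Every cKO library lay below every control library, and the level was 1.49-fold lower than in the floxed control (log2 fold change -0.57 ± 0.072 (SE), limma adjusted p = 6.44e-04) and 1.28-fold lower than in the Cre control (-0.35 ± 0.072, adjusted p = 0.0200). Its call against the Cre control was lost without replicate 2 or 3 of the Cre control or replicate 1 or 2 of the cKO, with adjusted p between 0.0575 and 0.0821. Efna4 had 8.51, 8.61 and 8.50 in the floxed libraries, 8.62, 8.65 and 8.63 in the Cre control and 8.82, 8.79 and 8.82 in the cKO. Its cKO libraries lay above all controls, 1.21-fold higher than the floxed control (0.27 ± 0.048, limma adjusted p = 0.00243) and 1.13-fold higher than the Cre control (0.18 ± 0.048, adjusted p = 0.0479). That second call lay close to the threshold and was lost without replicate 1 or 3 of the floxed control, replicate 2 or 3 of the Cre control or any single cKO library (adjusted p = 0.0665 to 0.151), with the replicate block (0.0538) and in 4 other settings (0.0537 to 0.0796).

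Efna1, which was the weakest of the ephrin-A ligands per length in the floxed control, had log2 values of 7.25, 7.60 and 7.38 there, 7.42, 7.76 and 7.58 in the Cre control and 7.91, 7.70 and 7.89 in the cKO. The cKO libraries lay above the floxed controls and overlapped with the Cre controls, with a log2 fold change of 0.43 ± 0.11 (limma adjusted p = 0.0122) against the former and 0.25 ± 0.11 (adjusted p = 0.160) against the latter. With the erythroid covariate the first of these was 0.19 (adjusted p = 0.433). Efna5, the ephrin that forms a gradient along the tectum, had 10.91, 10.55 and 10.64 in the floxed libraries, 11.10, 10.90 and 10.92 in the Cre control and 10.52, 10.59 and 10.54 in the cKO. It was 1.35-fold lower in the cKO than in the Cre control, with no overlap between those groups (-0.43 ± 0.086, limma adjusted p = 0.0195), and its log2 fold change against the floxed control was -0.15 ± 0.086 (adjusted p = 0.187). Without Cre control replicate 3 or cKO replicate 1 the call against the Cre control was lost (adjusted p = 0.0538 and 0.0769), and with the erythroid covariate the log2 fold changes were -0.28 (0.483) against the Cre control and -0.002 (0.995) against the floxed control. Efna2, the other tectal ephrin-A, passed neither test and stayed between 10.88 and 11.09 in all 9 libraries.

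The ephrin-B ligands were divided as well. Efnb3, a midline barrier for crossing axons, had 12.33, 12.31 and 12.35 in the floxed libraries, 12.14, 12.20 and 12.26 in the Cre control and 11.81, 11.95 and 11.96 in the cKO. The 3 genotypes did not overlap at all, and Efnb3 was 1.34-fold lower than in the floxed control (-0.43 ± 0.047, limma adjusted p = 4.10e-04) and 1.23-fold lower than in the Cre control (-0.29 ± 0.047, adjusted p = 0.0100). It lies on chromosome 11 (chr11:69554092-69560205). Efnb1, an X-linked gene expressed in progenitors and neural crest, had 11.46, 11.59 and 11.48 in the floxed libraries, 11.45, 11.61 and 11.63 in the Cre control and 11.70, 11.74 and 11.64 in the cKO. All its cKO libraries were above all controls, but the difference was only 1.13-fold (0.18 ± 0.056, limma adjusted p = 0.0292) against the floxed control and 1.09-fold (0.13 ± 0.056, adjusted p = 0.160) against the Cre control. The first call was lost without replicate 1 or 3 of the floxed control or replicate 1 or 2 of the cKO (adjusted p = 0.0775 to 0.103). Efnb2 passed neither test, with log2 fold changes of 0.03 and 0.13.

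Of the 9 EphA receptors, 4 fell and 1 rose against the floxed control, where 38.3% of all genes passed in either direction. Against the Cre control 2 fell and 1 rose, where 9.72% of all genes passed. Epha5 (chr5:84054761-84417382), a receptor of ephrin-A ligands on growing axons, had 11.37, 11.40 and 11.51 in the floxed libraries, 11.10, 11.18 and 11.26 in the Cre control and 10.89, 10.96 and 10.95 in the cKO. As with Efnb3, the genotypes did not overlap and the Cre control lay in between, with the cKO 1.41-fold lower than the floxed control (-0.49 ± 0.053, limma adjusted p = 3.37e-04) and 1.19-fold lower than the Cre control (-0.25 ± 0.053, adjusted p = 0.0232). The second call was lost without replicate 2 or 3 of the Cre control or replicate 1 or 2 of the cKO (adjusted p = 0.0564 to 0.0951). Epha1 (chr6:42358487-42373268), the receptor that rose, had 5.49, 5.65 and 5.49 in the floxed libraries, 5.52, 5.82 and 5.66 in the Cre control and 6.04, 5.95 and 5.96 in the cKO. Though it was the lowest member tested, its cKO libraries stood above all controls, by 1.36-fold over the floxed control (0.44 ± 0.079, limma adjusted p = 0.00242) and 1.25-fold over the Cre control (0.32 ± 0.079, adjusted p = 0.0366). The latter call was lost without replicate 1 or 3 of the floxed control, Cre control replicate 3 or any single cKO library (adjusted p = 0.0504 to 0.139), with no filter on low values (0.0543) and with only the 6 libraries compared (0.0686).

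Epha4, a receptor for ephrins of both classes, had 11.29, 11.25 and 11.23 in the floxed libraries, 10.82, 11.19 and 11.12 in the Cre control and 10.88, 10.82 and 10.88 in the cKO. It was 1.31-fold lower in the cKO than in the floxed control (-0.39 ± 0.080, limma adjusted p = 0.00428), and Cre control replicate 1 lay just below all 3 cKO libraries. Against the Cre control the log2 fold change was -0.18 ± 0.080 (adjusted p = 0.162), and without Cre control replicate 1 it passed (adjusted p = 0.00284). Epha6 had 6.21, 6.36 and 6.30 in the floxed libraries, 6.04, 6.17 and 6.20 in the Cre control and 5.87, 5.95 and 6.07 in the cKO, a 1.25-fold decrease against the floxed control (-0.33 ± 0.071, limma adjusted p = 0.00592). Its cKO and Cre control libraries overlapped, at a difference of -0.17 on the log2 scale (adjusted p = 0.137). Epha8, expressed in the dorsal midbrain from early stages, had 9.35, 9.30 and 9.24 in the floxed libraries, 9.16, 9.18 and 9.55 in the Cre control and 9.01, 8.94 and 9.04 in the cKO. Every cKO library was below every control, with log2 fold changes of -0.30 ± 0.094 (limma adjusted p = 0.0273, floxed control) and -0.30 ± 0.094 (adjusted p = 0.0693, Cre control). The first call was lost without any single floxed control library or without replicate 1 or 2 of the cKO (adjusted p = 0.0515 to 0.0865), and the second was gained without Cre control replicate 1 (0.0239).

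Epha2, which is mainly an epithelial receptor, had 8.71, 8.37 and 8.53 in the floxed libraries, 8.63, 8.60 and 8.65 in the Cre control and 8.34, 8.36 and 8.33 in the cKO. The floxed controls spread widely, and the 1.22-fold decrease passed against the Cre control (-0.28 ± 0.076, limma adjusted p = 0.0454) and not against the floxed control (-0.19 ± 0.076, adjusted p = 0.0703), although the cKO was below all 6 controls. The call was lost without floxed control replicate 3, replicate 2 or 3 of the Cre control or any single cKO library (adjusted p = 0.0699 to 0.138), with no filter on low values (0.0602) and with quantile normalization (0.0553), and without floxed control replicate 2 the other comparison passed (0.0126). With the erythroid covariate the log2 fold changes were -0.14 (adjusted p = 0.672) against the Cre control and -0.042 (0.844) against the floxed control. Epha3, Epha7 and Epha10 passed neither test, with log2 fold changes against the floxed control of 0.11, -0.13 and -0.15.

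Of the 5 EphB receptors, Ephb6 and Ephb1 fell and Ephb4 rose against the floxed control, where 38.3% of all genes passed. Ephb6 (chr6:41605482-41620509), a receptor that lacks kinase activity, had 10.05, 9.95 and 10.05 in the floxed libraries, 9.91, 9.93 and 9.95 in the Cre control and 9.56, 9.64 and 9.72 in the cKO. The highest cKO library was below the lowest control, and the cKO was 1.30-fold below the floxed control (-0.38 ± 0.051, limma adjusted p = 8.00e-04) and 1.22-fold below the Cre control (-0.29 ± 0.051, adjusted p = 0.0137). Ephb4 (chr5:137350109-137378669), the receptor of ephrin-B2 that marks veins, had 10.27, 10.42 and 10.25 in the floxed libraries, 10.43, 10.63 and 10.52 in the Cre control and 10.78, 10.81 and 10.76 in the cKO. Its 3 genotypes formed a rising series without overlap between groups, 1.39-fold higher in the cKO than in the floxed control (0.47 ± 0.061, limma adjusted p = 6.77e-04) and 1.19-fold higher than in the Cre control (0.26 ± 0.061, adjusted p = 0.0321). As for the Cre control, Ephb6 was lost without Cre control replicate 3 or cKO replicate 1 (adjusted p = 0.0524 and 0.0526), and Ephb4 without Cre control replicate 3 or any single cKO library (0.0584 to 0.107) and with only the 6 libraries compared (0.0549).

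Ephb1, which turns retinal axons away from the midline, had 12.18, 12.09 and 12.18 in the floxed libraries, 11.82, 12.03 and 12.04 in the Cre control and 11.74, 11.88 and 11.95 in the cKO. The decrease against the floxed control was 1.22-fold (-0.29 ± 0.069, limma adjusted p = 0.00873), while the cKO and Cre control libraries overlapped (-0.11 ± 0.069, adjusted p = 0.316). The call against the Cre control was gained without Cre control replicate 1 (adjusted p = 0.0491). Ephb2, the highest member per length, and Ephb3 passed neither test, with log2 fold changes of 0.01 and 0.01 against the floxed control and standard errors of 0.081 and 0.084.

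Among the Slits, only the weakest per length, Slit3, passed a test, and it rose against both controls. Slit3 (chr11:35121224-35708507), a ligand of Robo receptors that is also made outside the nervous system, had 8.89, 8.98 and 8.94 in the floxed libraries, 8.57, 8.95 and 8.76 in the Cre control and 9.20, 9.25 and 9.16 in the cKO. The cKO lay above all 6 controls, 1.21-fold over the floxed control (0.27 ± 0.082, limma adjusted p = 0.0265) and 1.36-fold over the Cre control (0.45 ± 0.082, adjusted p = 0.0153). Its call against the floxed control was lost without replicate 1 or 3 of the floxed control or replicate 1 or 2 of the cKO (adjusted p = 0.0692 to 0.0829), and that against the Cre control without Cre control replicate 3 or replicate 1 or 2 of the cKO (0.0504 to 0.0572). Slit1 and Slit2, the main neural Slits, had log2 fold changes of -0.26 ± 0.12 and -0.26 ± 0.13 against the floxed control (adjusted p = 0.121 and 0.148) and of -0.14 and -0.39 against the Cre control (0.469 and 0.0847). Without Cre control replicate 1 both passed against the Cre control (adjusted p = 0.0292 and 0.00872) and Slit1 against the floxed control (0.0174), Slit1 also passed there with only the 6 libraries compared (0.0258), and Slit2 passed against the Cre control with the replicate block (0.0486).

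Of the 4 Robo receptors, Robo2 alone passed a test, against the floxed control. Robo2, which with Robo1 mediates Slit repulsion, had 11.53, 11.39 and 11.52 in the floxed libraries, 10.98, 11.30 and 11.43 in the Cre control and 10.85, 10.96 and 11.07 in the cKO. It was 1.43-fold lower than in the floxed control (-0.52 ± 0.10, limma adjusted p = 0.00383), with Cre control replicate 1 among the cKO values. Against the Cre control the log2 fold change was -0.28 ± 0.10 (adjusted p = 0.108), which passed without Cre control replicate 1 (0.00576). Robo1, on the same chromosome and 845.7 kb away, had log2 fold changes of -0.08 and 0.02 in the comparisons in turn, and Robo4, the endothelial Robo, 0.14 and 0.19, none of which passed. Robo3, which lets commissural axons cross the midline, was chosen here after its values were seen because its pattern was unlike the others: it had 11.03, 11.04 and 11.29 in the floxed libraries, 10.61, 10.85 and 10.32 in the Cre control and 10.88, 11.02 and 10.99 in the cKO. The Cre control was the lowest group and overlapped with neither of the others, and its difference from the floxed control (-0.52 ± 0.12, limma adjusted p = 0.145) and that of the cKO from it (0.37 ± 0.12, adjusted p = 0.0782) did not pass, though the latter passed without Cre control replicate 2 (0.0368).

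Of the 6 netrin receptors, 5 passed against the floxed control, 4 lower and 1 higher, where 38.3% of all genes passed. Unc5d (chr8:28646717-29219636), an Unc5 receptor of migrating cortical neurons, had 9.50, 9.20 and 9.36 in the floxed libraries, 9.12, 9.23 and 9.26 in the Cre control and 8.51, 8.68 and 8.78 in the cKO. This was the largest change of any member in both comparisons, 1.62-fold lower than the floxed control (-0.70 ± 0.088, limma adjusted p = 6.52e-04) and 1.46-fold lower than the Cre control (-0.55 ± 0.088, adjusted p = 0.00986), and all cKO libraries were below all controls. Unc5c, which mediates repulsion from netrin 1, had 10.67, 10.56 and 10.65 in the floxed libraries, 10.27, 10.47 and 10.26 in the Cre control and 10.23, 10.12 and 9.98 in the cKO. Its groups did not overlap, with a 1.43-fold decrease against the floxed control (-0.52 ± 0.074, limma adjusted p = 0.00104) and -0.22 ± 0.074 against the Cre control (adjusted p = 0.0853). Unc5a had 8.48, 8.64 and 8.69 in the floxed libraries, 8.25, 8.50 and 8.35 in the Cre control and 7.99, 8.14 and 8.13 in the cKO. The cKO was below all 6 controls and 1.43-fold below the floxed control (-0.52 ± 0.081, limma adjusted p = 0.00141), and against the Cre control the log2 fold change was -0.28 ± 0.081 (adjusted p = 0.0587), which passed without Cre control replicate 1 (0.0198), with the replicate block (0.0205), with median centring (0.0412) and with quantile normalization (0.0436).

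Unc5b, the Unc5 receptor of blood vessels, went the other way, with 9.29, 9.66 and 9.61 in the floxed libraries, 9.29, 9.55 and 9.70 in the Cre control and 9.95, 9.85 and 9.76 in the cKO. All cKO libraries were above all controls, and the log2 fold change was 0.33 ± 0.12 (limma adjusted p = 0.0468) against the floxed control and 0.34 ± 0.12 (adjusted p = 0.0901) against the Cre control. The call was lost without replicate 1 or 3 of the floxed control, Cre control replicate 2 or any single cKO library (adjusted p = 0.0577 to 0.165), with no filter on low values (0.0648), with no trend in the variance (0.0507) and with quantile normalization (0.0544). Dcc, the attractive netrin receptor, had 11.52, 11.36 and 11.46 in the floxed libraries, 11.11, 11.40 and 11.39 in the Cre control and 10.96, 11.23 and 10.92 in the cKO. It was 1.33-fold lower than in the floxed control (-0.41 ± 0.097, limma adjusted p = 0.00855) and overlapped with the Cre control, where the log2 fold change was -0.26 (adjusted p = 0.106) and passed without Cre control replicate 1 (0.0171). With the erythroid covariate the change against the floxed control was -0.14 (adjusted p = 0.412). Neogenin (Neo1), which binds netrins and the RGM proteins, passed neither test, with log2 fold changes of -0.09 and -0.05, and passed against the Cre control without Cre control replicate 1 (-0.21, adjusted p = 0.00754).

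The netrin-G genes, which encode lipid-anchored netrin relatives that bind synaptic partners of the Lrrc4 family and not Dcc, both fell against the floxed control. Ntng2 (chr2:29194541-29253005) had 10.01, 9.88 and 9.74 in the floxed libraries, 9.79, 9.73 and 9.82 in the Cre control and 9.43, 9.46 and 9.37 in the cKO. The cKO stood clear of all controls, 1.37-fold lower than the floxed control (-0.46 ± 0.066, limma adjusted p = 0.00106) and 1.28-fold lower than the Cre control (-0.36 ± 0.066, adjusted p = 0.0151), though the latter was lost without Cre control replicate 3 or cKO replicate 1 (0.0579 and 0.0545). Ntng1 had 9.04, 9.12 and 8.95 in the floxed libraries, 8.52, 9.11 and 9.03 in the Cre control and 8.33, 8.70 and 8.39 in the cKO. Its decrease against the floxed control was 1.48-fold (-0.56 ± 0.15, limma adjusted p = 0.0139), was lost without cKO replicate 1 (0.0578) and was -0.36 (adjusted p = 0.347) with the erythroid covariate. Set against the Cre control it was -0.41 ± 0.15 (adjusted p = 0.101), which passed without Cre control replicate 1 (0.00578) and with the replicate block (0.0428). The secreted netrins Ntn1 and Ntn4 passed neither test, with log2 fold changes of 0.19 ± 0.093 and -0.05 ± 0.048 against the floxed control, where Ntn1 passed with only the 6 libraries compared (adjusted p = 0.0266) and when replicate 1 of the Cre control was left out (0.0228), and Ntn5, at 3.80, 3.79 and 3.82 in the genotypes in turn, was not tested.

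**Figure D3:**
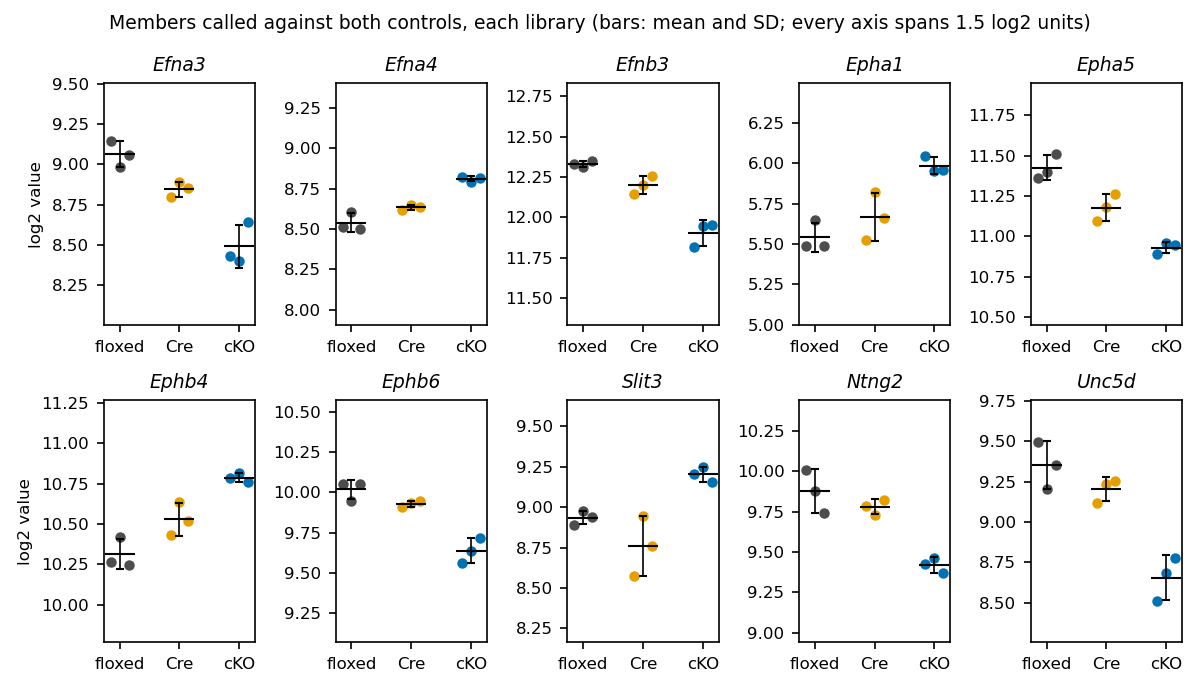
Log2 value of the 10 members that passed the test against both controls, in each of the 9 libraries (points), with the mean and SD of 3 libraries as bars, and every vertical axis spanning 1.5 log2 units. In each of the 10 panels the cKO points lie outside the range of all 6 control points, above it in Efna4, Epha1, Ephb4 and Slit3 and below it in the other 6.

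Between the controls, 0 of 39 members passed the limma test, where 0.057% of all genes did. At an unadjusted p under 0.05 there were 11 members (28.2%), 2 higher and 9 lower in the Cre control, where 17.5% of all genes reached it, and the smallest adjusted p among the members was 0.140, for Epha5. In 11 members the libraries of the 2 controls did not overlap, where 22.8% of all genes did not. Of the 39, 30 had a lower mean in the Cre control, and the median log2 fold change was -0.095 beside -0.0010 over all genes. In 25 of 39 members the mean of the Cre control lay between those of the floxed control and the cKO, where 64.4% of all genes showed this order. Among these members were 20 of the 22 called against the floxed control. Those 22 were picked for a difference between the outer groups, and the share among all called genes was not counted. Cre control replicate 1 was the lowest of the 3 Cre controls in 31 of 39 members, where it was the lowest for 45.5% of all genes.

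Ligands and receptors were compared by their counts and medians. Against the floxed control, 8 of 15 ligands (53.3%) passed, 4 in each direction, with a median log2 fold change over the 15 of -0.049, and 14 of 24 receptors (58.3%) passed, 3 higher and 11 lower, with a median of -0.18, while 38.3% of all genes passed, 19.5% higher and 18.8% lower, with a median of 0.011. Against the Cre control, 6 of 15 ligands (40.0%; 2 higher, 4 lower) and 6 of 24 receptors (25%; 2 higher, 4 lower) passed, with medians of 0.015 and -0.080, while 9.72% of all genes passed, 4.86% higher and 4.85% lower, with a median of 0.012. Whether ligands and receptors differ was not tested. By library, the median difference of the 24 receptors from their floxed control means was -0.22, -0.20 and -0.20 in the cKO, and -0.29, -0.055 and -0.014 in the Cre control, so that Cre control replicate 1 lay below all cKO libraries on this measure. For the 15 ligands it was -0.048, -0.010 and -0.090 in the cKO and -0.16, 0.034 and 0.074 in the Cre control. Over all genes the same medians lay between -0.010 and 0.012. Without Cre control replicate 1 the receptor median against the Cre control was -0.19, and without Cre control replicate 3 it was -0.028.

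Genes that act with these ligands and receptors were followed in 3 lists, of which 50 of 52 genes were tested. Against the floxed control, 4 rose and 24 fell (median log2 fold change -0.16), where 19.5% of all genes tested passed as higher and 18.8% as lower. Against the Cre control 1 rose and 6 fell (median -0.059), where 4.86% of all genes passed as higher and 4.85% as lower. Of 18 transducers of Eph and ephrin signals, 1 rose and 6 fell against the floxed control, where 38.3% of all genes passed in either direction. Against the Cre control 1 of them rose and 2 fell. Of 13 partners of Slit and Robo, 1 rose and 7 fell there and 0 passed by limma against the Cre control. Of 20 partners of the netrins, 3 rose and 11 fell, and 0 rose and 4 fell against the Cre control. The lists are not separate. Flrt3, higher than in the floxed control, is in both the Slit and the netrin list. Tubb3, lower there (-0.41), is in the netrin list and also among the neuron markers. Rhoa, the small GTPase downstream of EphA receptors, rose against both controls (log2 fold change 0.26 ± 0.035, adjusted p = 7.91e-04, and 0.16 ± 0.035, limma adjusted p = 0.0279,). Its values were 12.63 to 12.67 in the floxed control, 12.72 to 12.79 in the Cre control and 12.90 to 12.93 in the cKO, 3 groups without overlap. The exchange factors Kalrn (-0.43 and -0.27) and Arhgef15 (-0.42 and -0.28) fell against both, as did 4 of the netrin list. Draxin, a secreted repellent that binds netrin 1 and Dcc, had log2 fold changes of -0.69 ± 0.051 (limma adjusted p = 1.27e-04) and -0.49 ± 0.051 (adjusted p = 0.00160) in turn. Trim67, a ubiquitin ligase that binds Dcc, changed by -0.73 and -0.48, Islr2, which is expressed by growing axons, by -0.66 and -0.59, and Cbln4, a secreted cerebellin, by -0.48 and -0.36, in the comparisons in turn.

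**Figure D4:**
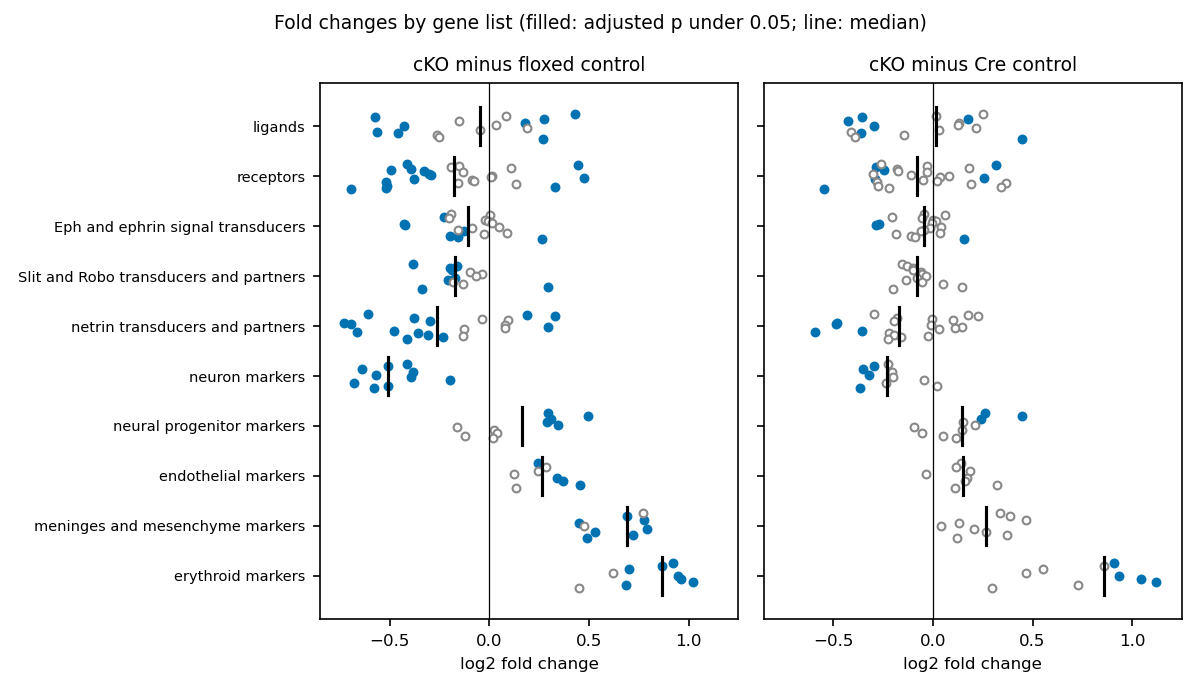
Log2 fold change of each gene (points) in the ligands, the receptors, the 3 partner lists and 5 lists of cell type markers, as cKO minus floxed control (left) and cKO minus Cre control (right), with filled points for an adjusted p under 0.05 by limma and a line at each list's median. Receptors and partner lists have medians below 0 in both panels, neuron markers lie lowest (medians -0.51 and -0.23) and erythroid markers highest (0.87 and 0.86). Tubb3 is shown in both the netrin partner list and the neuron markers, and Flrt3 in both the Slit and the netrin partner list.

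Markers of cell types moved along with the members. Over all genes, 19.5% passed as higher and 18.8% as lower than in the floxed control. Against the Cre control these shares were 4.86% and 4.85%. Among 10 neuron markers, 10 passed the test as lower in the cKO than in the floxed libraries and 4 than in the Cre control, where 9 of 10 had a lower mean, with summed linear levels of 152900 to 165800 in the floxed control, 120500 to 147700 in the Cre control and 106800 to 120000 in the cKO. The lowest of the Cre controls was replicate 1, with 120500, close to the highest cKO library. Of 10 neural progenitor markers, 5 passed as higher than in the floxed control and 3 than in the Cre control, while 8 of 10 had a higher mean in each comparison, with sums of 89220 to 93270, 89460 to 95730 and 101200 to 106000 in turn. Among non-neural cells, 7 of 9 erythroid, 7 of 9 meningeal and 4 of 8 endothelial markers passed as higher than in the floxed control, and 4, 0 and 0 than in the Cre control by limma, where 9, 9 and 7 had a higher mean. Their sums in the floxed control, Cre control and cKO were 152300 to 258900, 183400 to 211000 and 237900 to 459800 for erythroid markers, 29930 to 54090, 37810 to 62350 and 63750 to 66310 for meningeal markers, and 5967 to 7696, 6469 to 8237 and 7848 to 8438 for endothelial markers. Of 8 midbrain and isthmus markers, 1 (Pax5, log2 fold change 0.56) passed as higher than in the floxed control. Lower there were 3, Pax2 (-0.63), Pax7 (-0.48) and Meis2 (-0.57). Against the Cre control Pax5 alone passed, as higher (0.39), and no forebrain marker of the 4 tested passed in either comparison. None of the 7 microglia markers passed in either comparison by limma, 1 of 3 neural crest glia markers passed as higher than in the floxed control, and no marker was at 0 in every library. The part of these cell types in the differences of the members was not tested, and in bulk tissue fewer cells of a type and less RNA per cell cannot be told apart.

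Several members share exon sequence with another gene, and the sources used here do not state whether strand was used in counting. Reads from the shared stretch may therefore not be told apart from those of the partner. The length of the shared stretches was not measured. Among the 10 called against both controls these are Efna3 with the antisense gene Gm15998, Efna4 with the antisense gene 4731419I09Rik, Epha1 with Zyx and Ephb4 with Zan on the opposite strand, and Ntng2 with 6530402F18Rik on its own strand. Ephb1, Epha6, Unc5a and Unc5c, called against the floxed control alone, also overlap with a gene on the opposite strand (Gm26846, Gm9017, Hk3 and Gm15688).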

How the data were processed

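RNA of 9 midbrain samples, 3 per genotype, had been sequenced after poly-A selection. As deposited, the data are 1 table of log2 values, which the authors had normalised between libraries, without read counts and with no transformation named. The submitters' processing notes name FastQC 0.10.1, kallisto 0.46.1, DESeq2 and the build mm10, while the settings of each are not given in the sources used here. The columns named KO were matched to the samples whose labels give both floxed alleles and Cre, and 0 value columns were left unused. Of 27360 rows, 5764 had no gene name and 4840 were at 0 in every library. Named genes with at least 1 cpm on the linear values (4.73 to 4.78 on the log2 scale) in at least 3 libraries were kept, with the highest row per symbol. A mean per genotype was fitted to all 9 libraries with limma 3.58.1 in R 4.3.3 (eBayes with a trend, two-sided moderated tests, Benjamini-Hochberg adjustment over 14029 genes). A gene was called at an adjusted p under 0.05. An exact permutation test of 3 libraries against 3 cannot go below 0.10 and was not used.

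In a test on simulated data with 200 of 14029 genes changed by a log2 value of 1, 99.0% were recovered for cKO against floxed control, 99.0% for cKO against Cre control and 96.5% for Cre control against floxed control, with 9, 3 and 9 false calls. Changes of members against the floxed control ran only from -0.696 to 0.474, and recovery at such sizes was not simulated. The simulated noise was independent between genes, without an effect shared by the genes of a library. The labels do not say whether samples came from separate litters, so p-values measure the spread between these samples. Alternatives were 2 other filters, eBayes without a trend, only the 6 libraries compared, median centring, quantile normalization, a replicate block, an erythroid covariate, other thresholds and the omission of each library.

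The members and lists were chosen with earlier results of these data known. Values in each library are given for the 24 members called in cKO against either control. Transcript lengths and gene positions are from GENCODE M21 on GRCm38, and promoters from RefSeq. Protein sequences were not used here.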

Additional observations from a re-analysis of the deposited data

How the results depend on the processing

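Directions of the 24 named members did not reverse where an alternative could move a fold change. Those were median centring, quantile normalization, the erythroid covariate and the omission of a library of either genotype compared. The other settings leave the fold change as it was, so direction was fixed there. Of 812 values of single members over all alternatives, 697 kept their side of the threshold, 103 lost and 12 gained a call. The count of members called against the floxed control was 4 with the erythroid covariate and 1 with a fold change over 1.5, and 17 to 24 when 1 library was left out. The shares of all genes were 3.22%, 2.92% and 25.7% to 46.7% in turn. Against the Cre control the count was 0 with the erythroid covariate, 0 with the fold limit by limma, and 2 to 22 with 1 library left out. There the shares of all genes were 0.107%, 0.563% and 1.69% to 23.5%. At an unadjusted p under 0.05 by limma the count against the Cre control was 26, where the share of all genes was not counted. Between the controls the count was 11 at an unadjusted p, which 17.5% of all genes reached, and 0 by limma in all other settings. The replicate block gave 22 and 14 members against the floxed and the Cre control and 0 between controls. The shares of all genes were 40.5%, 12.6% and 0.0642% in turn. Against the Cre control Efna4 was lost with the block, and Ntng1, Unc5a and Slit2 were gained. The receptor median against the floxed control was -0.191 with median centring, -0.193 with quantile normalization, -0.138 with the erythroid covariate and -0.237 to -0.176 with 1 library left out, and against the Cre control -0.025 with that covariate and -0.194 to -0.028 with 1 library left out. The ligand median against the floxed control was 0.019 with the covariate. Medians per kb with the longest transcript were 280, 272 and 272 in the floxed control, Cre control and cKO, against 590, 492 and 502. The cause of these shifts was not tested. The labels do not say whether a replicate number marks a shared litter. The deviations of libraries with the same number correlated between -0.027 and 0.26 (median 0.10) and those of libraries with different numbers between -0.28 and 0.16 (median -0.053), so no pairing was used. Without read counts, what depth limits is unknown.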
